A study of Mus musculus with 32 samples.

Results

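Primary B cells from mouse spleen that lacked the transcription elongation factor ELOF1 were compared with wild-type (WT) spleen B cells after 2.5 days of culture with interleukin 4 (IL4) and lipopolysaccharide (LPS). The comparison takes the 10 spleen libraries of day 2.5, which are 5 libraries labelled Elof1-cKO (cKO below) and 5 labelled WT, out of 32 libraries in the series. The other 22 are 6 spleen libraries of the same 2 genotypes at day 3.5 and 16 libraries of the mouse B lymphoma line CH12F3, in which a knockout of Elof1 carried either an empty vector or ELOF1 put back. Every spleen library of both genotypes received IL4 and LPS, so no unstimulated cell is part of the comparison. The promoter or Cre line behind the cKO label, the age and the sex of the animals were not stated in the sources at hand, nor was it stated whether libraries of the same number came from the same animal or litter. P-values therefore measure the spread between libraries. For the tests of genes that spread was estimated over all 16 spleen libraries, those of day 3.5 included. Total RNA was depleted of ribosomal RNA, and RNA of fly S2 cells had been added in proportion to the number of cells as a spike-in.

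ELOF1 is a small conserved protein that travels with RNA polymerase II and takes part in transcription-coupled repair, in which a polymerase stalled at a DNA lesion is marked and the lesion is removed. In activated B cells DNA breaks form in transcribed switch regions of the immunoglobulin heavy chain locus. These breaks are joined so that the variable region moves from the mu constant gene (Ighm) to a downstream one. With IL4 and LPS, mouse B cells switch mainly to IgG1 (Ighg1) and IgE (Ighe), after germline transcription of the acceptor gene, and they grow and divide quickly at the same time.

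The 10 libraries held between 9807560 and 16359477 counts on mouse genes, and fly counts equalled 2.97% to 6.36% of the mouse counts. Replicates 1 to 3 of each genotype carry library numbers of a later series in the labels (called the second run here) and replicates 4 and 5 numbers of an earlier one (the first run). The run was a term of the fit, because 5389 of the 13367 genes tested differed between runs. Ribosomal RNA genes took 0.0755% to 3.09% of the mouse counts and mitochondrial genes 0.574% to 3.55%. WT replicate 2 and cKO replicate 3 had a summed level of 4 Y-linked genes above 10 CPM (the libraries with Y-linked counts below), and the other 8 libraries had at most 0.361 CPM, so each genotype held 1 such library. Xist, which female cells transcribe from the inactive X chromosome, had 6 and 3 counts in these 2 libraries and 4791 to 15211 in the other 8. By these genes the 2 libraries are of male cells and the other 8 of female cells. Of the 18 genes of the B cell identity list, all 18 passed the filter on low counts, and their summed level ran from 13312 to 16412 CPM (mouse counts relative to the TMM-scaled library size, the usual CPM unit) in cKO and from 12003 to 15919 CPM in WT. Among markers of other cells, 4 of 17 T and NK cell genes, 7 of 22 macrophage and dendritic cell genes, 1 of 16 granulocyte and mast cell genes, 2 of 15 erythroid and platelet genes and 3 of 15 stromal and endothelial genes passed that filter. Their summed levels overlapped between genotypes: 13.9 to 26.2 CPM in cKO against 20.7 to 39.8 CPM in WT for T and NK cells, and 54.2 to 64.9 CPM against 55.4 to 89.7 CPM for macrophages and dendritic cells. Within those lists Cd68, a lysosomal protein abundant in macrophages, was called higher (0.74, adjusted p = 0.00361), while Flt3 (-1.22, adjusted p = 0.0266) and the kinase gene Lck (-0.54, adjusted p = 0.00834) were called lower, Flt3 with its highest value in replicate 4 of each genotype. The call was lost for Flt3 without 5 of the 10 libraries (adjusted p up to 0.0689). At 0 in all 10 libraries were Cd4, S100a8, Hba-a1 and Hbb-bs, which mark helper T cells, neutrophils and red cell precursors (in the library with fewest counts, 0 allows a level of up to 3 counts or 0.306 CPM, for counting error only), and Cd3e and Csf1r, which mark T cells and macrophages, reached at most 0.152 and 0.578 CPM. Lyz2, a lysozyme gene abundant in macrophages and neutrophils, reached 3.23 CPM in cKO and 7.77 CPM in WT. The part of other cells in the results below was not tested.

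Elof1 itself stood at 5.80, 5.53, 4.40, 4.01 and 1.27 CPM in cKO replicates 1 to 5 and at 26.8, 20.8, 55.1, 31.4 and 10.99 CPM in WT replicates 1 to 5. Every cKO library lay below every WT library (log2 fold change -2.84, SE 0.37, adjusted p = 0.000413), and the WT libraries ranged from 10.99 to 55.1 CPM among themselves. The remaining cKO counts fall on a gene whose deleted exon the sources at hand do not state.

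**Figure D1:**
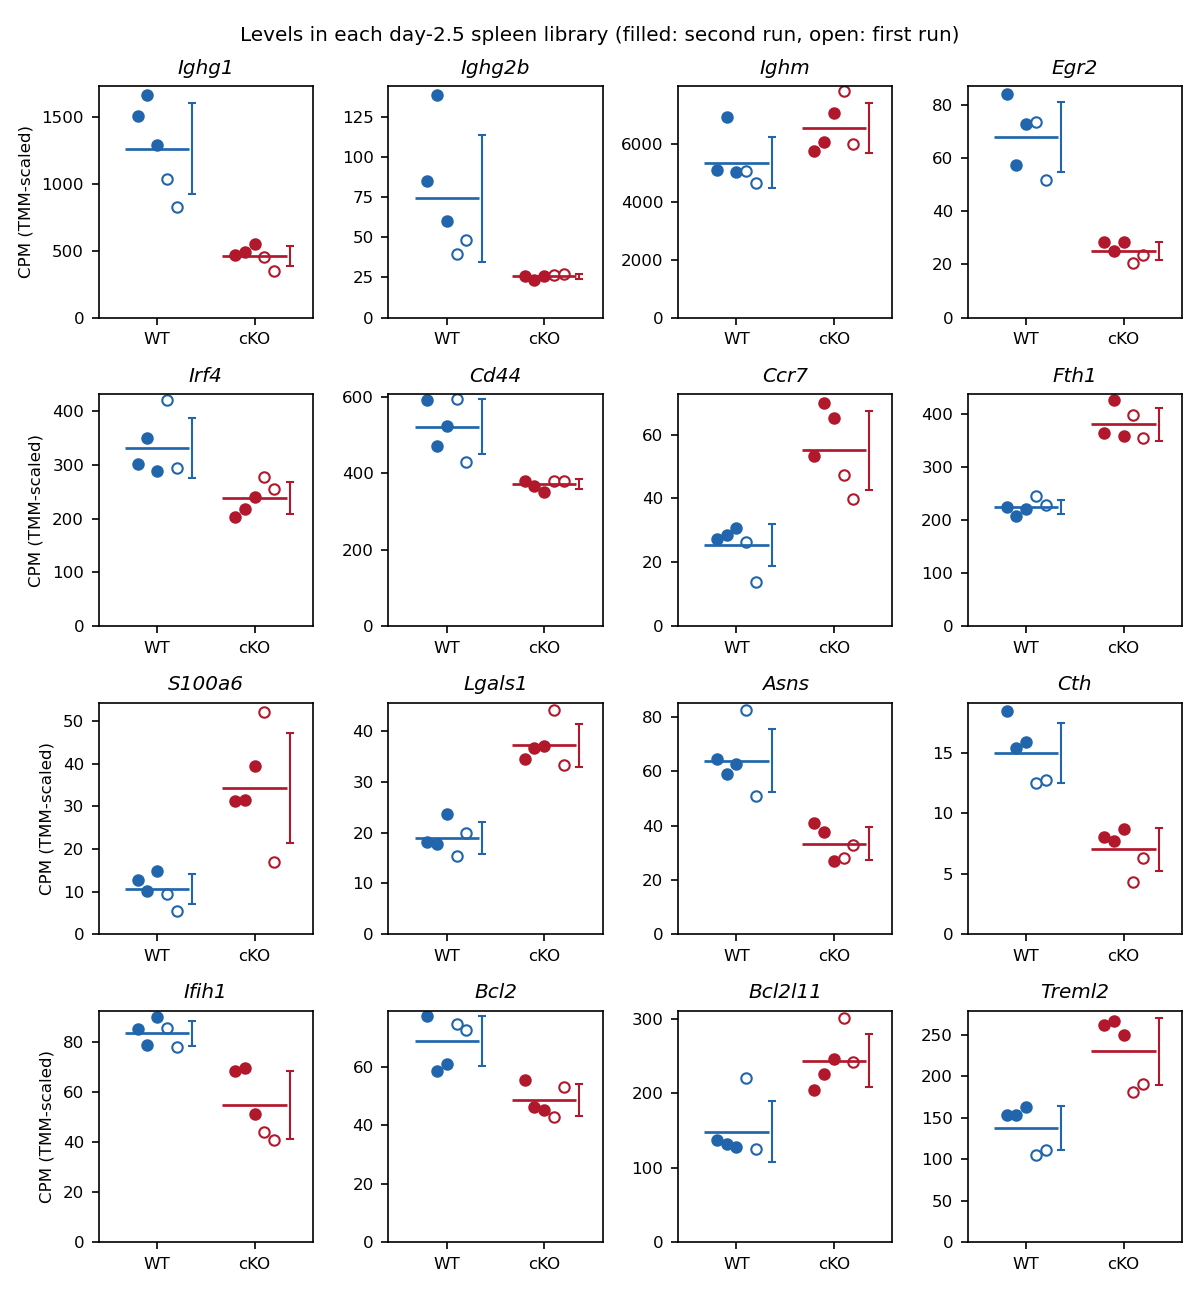
Levels of 16 genes in each day-2.5 spleen library, in TMM-scaled CPM from 0 (filled points: replicates 1 to 3 of the second run; open points: replicates 4 and 5 of the first run; line: mean; bar: SD, n = 5). Ighg1, Egr2, Asns and Cth separate the genotypes downwards and Ccr7, Fth1, S100a6 and Lgals1 upwards, whereas the 2 groups overlap for Ighm and Bcl2l11.

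At an adjusted p below 0.05, 693 of 13367 genes differed between the genotypes (5.18%): 377 were higher in cKO (2.82%) and 316 were lower (2.36%). The changes were mostly small, with 383 of the 693 under 1.5-fold and 100 at 2-fold or more (59 higher and 41 lower). For 293 of the called genes the 5 cKO and the 5 WT libraries did not overlap, and 417 genes in all (3.12%) showed no overlap. With the replicate number as a block, the count was 1779 of 12245 (14.5%, with 7.53% higher and 7.0% lower). Of the 680 called genes with a value there, 678 were called in both fits. Same numbers did not pair the libraries consistently within the second run, so block values stand beside the main fit only. List counts below are read against 5.18% of all genes, or 14.5% with the block. The lists were written with earlier results of these data known, so a share above that of all genes is a description only. The share called also depends on expression. Under a mean log2 CPM of 1, 0.541% of genes were called higher and 0.443% lower, against 5.38% and 1.46% at 7 or more. Every called gene kept its sign within the second run (681 of 681 with a value) and within the first run (684 of 684). The calls were made on these same libraries, so agreement of sign in parts of them is largely built in. The 2 against 2 libraries of the first run alone called 0 genes with edgeR (195 at an unadjusted p below 0.05). Leaving out WT replicate 1, cKO replicate 2 or cKO replicate 3 lowered the count to 425, 448 and 450. A fit without the 4 spleen libraries with Y-linked counts, of which 2 are of day 2.5, lowered it to 173 with every sign kept. Fitted on the 10 libraries of day 2.5 alone, 343 of 12245 genes were called. Whichever single library of the 10 was left out, 348 of the 693 calls (50.2%) held. For genes outside that set that are named as called, the text gives how many libraries, or which, ended the call when left out.

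Scaled to the fly counts instead of the mouse counts, the median gene fell by 0.14 on the log2 scale and 93 genes were called (0.696%), 30 higher (0.224%) and 63 lower (0.471%). Higher calls were thus 32.3% of the total under fly scaling against 54.4% under mouse scaling. All 693 genes kept their sign, but they were chosen on these same libraries. Fly counts over mouse counts, on the log2 scale, were -4.37 ± 0.318 in cKO and -4.48 ± 0.373 in WT (SD, n = 5 each), a difference of 0.11 that was not larger than the spread between libraries (exact 2-sided permutation test, p = 0.635, adjusted over 3 library-level tests 0.635). It was higher in cKO in all 5 same-numbered pairs, and with the replicate number as a block the exact sign-flip permutation test gave p = 0.0625, the smallest it allows. All fold changes below are therefore relative to the bulk of mouse transcripts, and list medians between 0 and 0.12 had the opposite sign under fly scaling (18 of 42 lists).

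Of the constant genes of the heavy chain, Ighg1 and Ighg2b were lower without ELOF1 and Ighm and Ighd were not called. The share called was 25% of the heavy chain constant list, against 5.18% of all genes. Of the heavy chain constant list, 0 of 8 tested members rose and 2 fell (median log2 fold change -0.68; 0 and 5 with the replicate number as a block). Ighg1, the constant gene of IgG1, measured 466.01, 492.8, 549, 453 and 347 CPM in cKO and 1503, 1664, 1287, 1036 and 825 CPM in WT. The highest cKO library was below the lowest WT library (log2 fold change -1.43, SE 0.13, adjusted p = 2.85e-05), and the difference was -1.56 in the second run and -1.23 in the first. Ighg2b, the IgG2b constant gene, was 25.8, 23.2, 26.2, 26.5 and 27.1 CPM in cKO and 84.8, 138, 60.0, 39.8 and 48.2 CPM in WT. This was a log2 fold change of -1.44 (SE 0.28, adjusted p = 0.00646). The cKO libraries were nearly level, and the WT libraries ranged over more than 3-fold with the highest values in the second run, where the difference was -1.91 against -0.73 in the first. Ighg3 was 28.8, 29.6, 34.4, 27.5 and 19.8 CPM in cKO and 64.3, 109, 53.3, 34.3 and 14.3 CPM in WT. Its groups overlapped, with WT replicate 5 below every cKO library and cKO replicate 3 just above WT replicate 4. Ighg3 was not called (-0.81, adjusted p = 0.126, or 0.03 with the replicate block). Ighe was lower in all 5 same-numbered pairs, at 39.4 ± 19.8 against 57.6 ± 27.4 CPM (SD, n = 5 each), but spread too widely for a call (-0.56, adjusted p = 0.47; 0.0161 with the replicate block). The low-level genes Ighg2c (-1.97, adjusted p = 0.207) and Igha (-0.50, adjusted p = 0.733) were not called either.

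The starting isotypes did not differ beyond the spread. Ighm was 5767, 6078, 7071, 7830.5 and 6001 CPM in cKO and 5096, 6920.1, 5028, 5075 and 4663 CPM in WT (0.29, adjusted p = 0.421), and Ighd was 40.3 ± 7.06 against 45.3 ± 15.1 CPM (-0.11, adjusted p = 0.794), lower in the second run and higher in the first. Within each library, the log2 ratio of Ighg1 to Ighm counts was -3.63, -3.62, -3.69, -4.11 and -4.11 in cKO and -1.76, -2.06, -1.97, -2.29 and -2.4997 in WT. The 2 sets did not overlap, the means differed by -1.72 (-3.83 ± 0.256 against -2.12 ± 0.287, SD, n = 5 each), and the same -1.72 was found in each run. The exact 2-sided permutation test gave p = 0.00794, the smallest that 5 against 5 libraries allow, or 0.0238 adjusted over the 3 library-level tests. With the replicate number as a block the sign-flip test gave 0.0625, its smallest possible value. Reads on a constant gene come from germline and switched transcripts alike, and these counts do not separate them. In bulk RNA, fewer cells with a transcript and less transcript per cell cannot be told apart.

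In the switching machinery the share of genes called was near the 5.18% of all genes, with 4.0% of the first list here and 4.17% of the end joining list, and 14.8% of the off-target loci were called. Of the list of uracil processing and switching factors, 1 of 25 tested members rose and 0 fell (median log2 fold change -0.01; 2 and 1 with the replicate number as a block), the riser being Msh6, a mismatch recognition protein (0.24, adjusted p = 0.0298). Ung, the uracil glycosylase (-0.15, adjusted p = 0.484), Supt5, a general elongation factor (0.12, adjusted p = 0.522), and Trp53bp1, a break-end protection factor (-0.14, adjusted p = 0.459), were not called. Trp53bp1 shares exon bases with Tubgcp4 on the opposite strand, and whether counting used the strand is not given in the sources used here. Of the end joining and break signalling list, 0 of 24 tested members rose and 1 fell (median log2 fold change -0.02; 1 and 0 with the replicate number as a block). The single fall was Shld2, a shieldin subunit that limits end resection (-0.42, adjusted p = 0.0485; 0.0521 with the block). Among loci known to mutate off target in switching B cells, 2 of 27 tested members rose and 2 fell (median log2 fold change 0.11, -0.04 under fly scaling; 10 and 3 with the replicate number as a block): Btg2 (0.54) and Gadd45g (0.50) were higher, Irf4 (-0.47) and Ebf1 (-0.48) lower, and Myc stood at -0.06 (adjusted p = 0.896). A call was lost for Msh6 without 6 of the 10 libraries (adjusted p up to 0.0844), Shld2 without 8 of the 10 libraries (adjusted p up to 0.13) and Gadd45g without 8 of the 10 libraries (adjusted p up to 0.127).

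In the machinery in which ELOF1 works, the share of genes called was near the 5.18% of all genes. Of the transcription-coupled repair list, 0 of 24 tested members rose and 1 fell (median log2 fold change -0.04; 0 and 1 with the replicate number as a block), and the single fall was Elof1. Of the RNA polymerase II elongation list, 1 of 38 tested members rose and 1 fell (median log2 fold change 0.03, -0.12 under fly scaling; 4 and 1 with the replicate number as a block). Besides Elof1, the call was Cdk9, the kinase that releases paused polymerase (115 ± 0.765 against 97.0 ± 9.42 CPM; 0.25, adjusted p = 0.0425), whose call was lost without 9 of the 10 libraries in turn. None of the 13 RNA polymerase II subunit genes was called by edgeR without the block, and 2 were higher with it.

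Activation markers split in direction. The share called was 11.1% of the immediate early list, 24.2% of the B cell activation list and 19% of the IL-4 and STAT6 list. Over all genes it was 5.18%. Egr2, an early growth response factor induced by antigen receptor and CD40 signals, was 28.2, 24.999, 28.3, 20.4 and 23.7 CPM in cKO and 83.8, 57.4, 72.8, 73.4 and 51.5 CPM in WT. No cKO library reached the lowest WT library (log2 fold change -1.43, SE 0.17, adjusted p = 0.000174), and the difference was -1.39 in the second run and -1.51 in the first. Its relatives Egr1 (-0.57, adjusted p = 0.394) and Egr3 (-0.40, adjusted p = 0.221) were lower on average without passing the test. Of the immediate early list, 2 of 27 tested members rose and 1 fell (median log2 fold change 0.12, -0.03 under fly scaling; 7 and 2 with the replicate number as a block), the rises being Jun (0.58, adjusted p = 0.00331) and the antiproliferative gene Btg2 (0.54, adjusted p = 0.036). Btg2 lost its call without any 1 of WT replicates 1, 3 and 4 or cKO replicates 3 and 5 (adjusted p up to 0.115).

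Of the B cell activation list, 2 of 33 tested members rose and 6 fell (median log2 fold change -0.06; 2 and 8 with the replicate number as a block). Cd44, an adhesion receptor raised on activated lymphocytes, was 379, 367, 351, 379 and 380.1 CPM in cKO and 591, 472, 525, 594 and 429.6 CPM in WT. The fitted log2 fold change was -0.49 (SE 0.09, adjusted p = 0.00444). The cKO libraries lay within a narrow band below all WT libraries. Irf4, a transcription factor needed for switching and plasma cell formation, was 203, 218.1, 239, 278 and 254 CPM in cKO and 301, 349.5, 289, 421 and 293 CPM in WT. On the log2 scale the fold change was -0.47 (SE 0.10, adjusted p = 0.0103). These groups did not overlap either, and cKO replicate 4 came closest. The alpha and beta chains of the interleukin 2 receptor fell, Il2ra at 53.6 ± 17.9 against 92.9 ± 49.3 CPM (-0.80, adjusted p = 0.0409) and Il2rb at 17.1 ± 2.40 against 25.3 ± 5.62 CPM (-0.55, adjusted p = 0.0252), and so did the costimulator Cd80 at 1.004 ± 0.378 against 2.40 ± 0.982 CPM (-1.24, adjusted p = 0.04). In the other direction Cd86, the second ligand of CD28, was 86.7, 104, 98.0, 142 and 113 CPM in cKO and 57.2, 52.1, 65.2, 109 and 63.1 CPM in WT (0.66, adjusted p = 0.00676), and Cd40, the receptor for helper T cell signals, was 141 ± 15.2 against 109 ± 17.2 CPM (0.38, adjusted p = 0.0066). WT replicate 4 was far above the other WT libraries for Cd86, so those groups overlapped. Of the IL-4 and STAT6 list, 2 of 21 tested members rose and 2 fell (median log2 fold change 0.11, -0.03 under fly scaling; 6 and 4 with the replicate number as a block). Il2rg, the common cytokine receptor chain (0.37, adjusted p = 0.00731), and Il4i1, an amino acid oxidase induced by IL4 (0.43, adjusted p = 0.0136), rose, and the chemokine gene Ccl22 fell (-0.85, adjusted p = 0.0179) with Ighg1. The threshold was missed by Il2ra without 8 of the 10 libraries (adjusted p up to 0.13), Il2rb without 6 of the 10 libraries (adjusted p up to 0.0725), Cd80 without 6 of the 10 libraries (adjusted p up to 0.12) and Ccl22 without WT replicate 3 and cKO replicate 1 (adjusted p up to 0.0645). Il2rg shares most of its exon bases with the predicted gene Gm20489, so its counts are not its own alone. Il4i1 shares 389 exon bases with an unnamed gene on the same strand, whose counts were 47.8% of its own.

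Several receptors that guide lymphocytes through lymphoid organs, and some quiescence genes, were higher without ELOF1. In the homing, egress and quiescence list 37.5% were called, against 5.18% of all genes. Of the homing, egress and quiescence list, 9 of 24 tested members rose and 0 fell (median log2 fold change 0.24; 11 and 2 with the replicate number as a block). Ccr7, the chemokine receptor that guides B cells to the T cell zone, was 53.2, 69.9, 65.3, 47.3 and 39.7 CPM in cKO and 27.4, 28.4, 30.6, 26.3 and 13.9 CPM in WT. That gave a log2 fold change of 1.12 (SE 0.15, adjusted p = 0.000629). All 5 cKO libraries exceeded all WT libraries, and WT replicate 5 was the lowest of all 10. The sphingosine-1-phosphate receptor genes S1pr4 (0.77, adjusted p = 0.00234) and S1pr1 (0.85, adjusted p = 0.00947) rose, as did the cannabinoid receptor gene Cnr2 (0.57, adjusted p = 0.00117) and the integrin chain Itgb7 (0.98, adjusted p = 0.0325). Klf2, a quiescence factor that drives S1pr1 in lymphocytes, was 203, 222.02, 244, 207 and 84.1 CPM in cKO and 139.8, 160.1, 147, 80.0 and 59.2 CPM in WT (0.77, adjusted p = 0.0457). Its groups overlapped because replicate 5 was low in both genotypes. Tob1, an antiproliferative protein (0.67, adjusted p = 0.0106), and Ski, a corepressor of TGF-beta signalling (0.52, adjusted p = 0.00384), were also among the 9. The call was lost for Itgb7 without 6 of the 10 libraries (adjusted p up to 0.0908) and Klf2 without 9 of the 10 libraries (adjusted p up to 0.0999). Cxcr5 (0.01), Gpr183 (-0.00) and Foxo1 (0.01) stayed near 0 without a call.

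Some calcium-binding and cytoskeletal genes were also higher. In the S100 and annexin list the share called was 23.5%, against 5.18% of all genes. Of the S100 and annexin list, 4 of 17 tested members rose and 0 fell (median log2 fold change 0.31; 7 and 0 with the replicate number as a block). S100a6 was 31.2, 31.5, 39.5, 52.0 and 16.9 CPM in cKO and 12.6, 10.1, 14.8, 9.42 and 5.53 CPM in WT (log2 fold change 1.74, SE 0.28, adjusted p = 0.00197), so that even the lowest cKO library exceeded every WT library. Lgals1, which encodes galectin-1, was 34.4, 36.7, 37.1, 44.2 and 33.3 CPM in cKO and 18.05, 17.7, 23.7, 15.4 and 19.8 CPM in WT. Its log2 fold change was 0.97 (SE 0.11, adjusted p = 0.000174). Vim, the intermediate filament vimentin, stood at 609.9 ± 109 against 387 ± 58.6 CPM (0.65, adjusted p = 0.000174) and S100a4 at 4.86 ± 2.06 against 1.64 ± 0.915 CPM (1.62, adjusted p = 0.0196). The call of S100a4 was lost without WT replicate 1 or cKO replicate 3 (adjusted p up to 0.0583). None of the 7 annexin genes of the list was called, with Anxa5 at 0.45 and Anxa2 at -0.21. Fth1, the ferritin heavy chain, was 365, 427, 359, 399 and 356 CPM in cKO and 225.2, 207.5, 220.7, 245 and 228.4 CPM in WT (log2 fold change 0.76, SE 0.09, adjusted p = 0.000174), again without overlap.

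Of the NRF2 antioxidant list, 4 of 20 tested members rose and 0 fell (median log2 fold change 0.21; 7 and 0 with the replicate number as a block). They were Nfe2l2, which encodes NRF2 itself (29.2 ± 2.37 against 21.7 ± 2.43 CPM; 0.43, adjusted p = 0.00666), Gclc, the catalytic subunit of glutathione synthesis (0.43, adjusted p = 0.0182), the quinone reductase Nqo1 (1.52, adjusted p = 0.0247) and the peroxidase Gpx1 (0.31, adjusted p = 0.0486). Nqo1 was low in every library, at 10.2, 14.9, 7.36, 2.39 and 6.21 CPM in cKO and 1.59, 2.87, 5.34, 0.777 and 3.06 CPM in WT. Calls were lost for Gclc without WT replicate 2 and cKO replicate 2 (adjusted p up to 0.0604), Nqo1 without 4 of the 10 libraries (adjusted p up to 0.0777) and Gpx1 without 10 of the 10 libraries (adjusted p up to 0.125). Hmox1 (0.60, adjusted p = 0.0964) and Srxn1 (1.17, adjusted p = 0.186) lay on the same side without passing the test. The share of the NRF2 list called was 20%, against 5.18% of all genes.

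Among enzymes that make amino acids, the calls were in the opposite direction. The transcription factor ATF4 raises such genes through a composite C/EBP-ATF element when amino acids are short or the endoplasmic reticulum is stressed. Of the amino acid and one-carbon synthesis list, 0 of 26 tested members rose and 8 fell (median log2 fold change -0.24; 0 and 14 with the replicate number as a block). Such an element shows where ATF4 could bind, so the promoters of the 4 called genes of the ATF4-related lists that hold the element TGATGNAA within the 250 bases before the RefSeq start are printed with its letters in capitals (GRCm38.p6, the strand of the gene, 5′ to 3′). They are Asns on chromosome 6 (7693210 to 7693459, minus strand), Pycr1 on chromosome 11 (120643749 to 120643998, minus strand) and Chac1 on chromosome 2 (119350992 to 119351241, plus strand, where the element is on the opposite strand), which were called lower. The fourth is Jdp2 on chromosome 12 (85599166 to 85599415, plus strand), which was called higher.
Asns: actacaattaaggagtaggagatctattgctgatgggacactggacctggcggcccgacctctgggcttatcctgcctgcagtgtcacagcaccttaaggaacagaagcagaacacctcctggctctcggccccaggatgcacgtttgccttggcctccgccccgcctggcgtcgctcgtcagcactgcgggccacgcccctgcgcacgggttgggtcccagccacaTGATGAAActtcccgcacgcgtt
Pycr1: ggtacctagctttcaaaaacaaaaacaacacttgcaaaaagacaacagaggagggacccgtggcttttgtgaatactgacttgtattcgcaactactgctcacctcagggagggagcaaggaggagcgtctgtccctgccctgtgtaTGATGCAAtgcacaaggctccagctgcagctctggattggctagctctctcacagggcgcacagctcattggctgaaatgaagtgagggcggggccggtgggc
Chac1: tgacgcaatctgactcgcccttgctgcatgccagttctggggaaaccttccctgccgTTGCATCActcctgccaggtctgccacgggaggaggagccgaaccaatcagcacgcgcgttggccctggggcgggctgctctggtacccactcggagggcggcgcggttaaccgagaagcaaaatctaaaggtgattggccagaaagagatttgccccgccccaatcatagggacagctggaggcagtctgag
Jdp2: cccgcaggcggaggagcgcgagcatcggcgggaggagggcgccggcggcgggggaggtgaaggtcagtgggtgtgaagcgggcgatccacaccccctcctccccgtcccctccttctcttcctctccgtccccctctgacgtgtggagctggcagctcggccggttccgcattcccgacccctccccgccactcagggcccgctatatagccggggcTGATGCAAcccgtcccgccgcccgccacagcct
The first letter lies 23, 103, 193 and 33 bases before the start of Asns, Pycr1, Chac1 and Jdp2. Searched on both strands, the element occurred in 14 of the 65 tested members of the 4 ATF4-related lists with a RefSeq promoter (21.5%), in 3 of 11 members called lower and in 11 of 54 members not called lower. It occurred in 3.91% of all 27025 genes with a promoter and in 2.39% of the 9149 tested genes with one. A match is a description of these letters only.

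Asns, asparagine synthetase, was 41.0, 37.8, 27.0, 28.2 and 33.02 CPM in cKO and 64.6, 59.0, 62.8, 82.6 and 51.0 CPM in WT. This was a log2 fold change of -0.94 (SE 0.16, adjusted p = 0.00388). The groups did not overlap and the difference was -0.82 in the second run and -1.14 in the first. Cth, which makes cysteine from cystathionine, was 8.04, 7.69, 8.73, 4.30 and 6.28 CPM in cKO and 18.4, 15.4, 15.8, 12.5 and 12.7 CPM in WT (log2 fold change -1.10, SE 0.16, adjusted p = 0.000768), also without overlap. The other falls were the serine enzyme Psph (-0.65, adjusted p = 0.007), the branched-chain transaminase Bcat1 (-0.56, adjusted p = 0.00597), the proline enzymes Pycr1 (-0.68, adjusted p = 0.0113) and Aldh18a1 (-0.30, adjusted p = 0.0355), the alanine transaminase Gpt2 (-0.89, adjusted p = 0.0154) and the folate enzyme Shmt1 (-0.34, adjusted p = 0.0154). Phgdh (-0.26, adjusted p = 0.145), Psat1 (-0.43, adjusted p = 0.0663) and Shmt2 (-0.10, adjusted p = 0.503), which feed serine and glycine synthesis, were not called. The share called was 30.8% of the amino acid and one-carbon synthesis list, against 5.18% of all genes. It was 6.25% of the amino acid transporters, near that of all genes, and 9.09% of the aminoacyl-tRNA synthetases. Of the amino acid transporters, 0 of 16 tested members rose and 1 fell (median log2 fold change -0.09; 1 and 3 with the replicate number as a block). The fall was Slc1a4, a carrier of alanine, serine and cysteine (10.3 ± 2.63 against 21.4 ± 3.56 CPM; -1.06, adjusted p = 0.000413). Of the aminoacyl-tRNA synthetases, 0 of 22 tested members rose and 2 fell (median log2 fold change -0.08; 0 and 4 with the replicate number as a block), namely Iars (-0.27, adjusted p = 0.0329) and Lars (-0.45, adjusted p = 0.0361). The threshold was missed by Aldh18a1 without 6 of the 10 libraries (adjusted p up to 0.103), Iars without 7 of the 10 libraries (adjusted p up to 0.0838) and Lars without 7 of the 10 libraries (adjusted p up to 0.103).

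The stress effectors of the same pathway held calls in both directions. Of that list 19% were called, against 5.18% of all genes. Of the ATF4 stress effector list, 2 of 21 tested members rose and 2 fell (median log2 fold change -0.07; 2 and 5 with the replicate number as a block). The pseudokinase Trib3 (7.98 ± 2.18 against 14.4 ± 3.17 CPM; -0.85, adjusted p = 0.0154) and the glutathione-degrading enzyme Chac1 (9.08 ± 1.64 against 15.02 ± 4.68 CPM; -0.71, adjusted p = 0.0312) fell. Chac1 lost its call without any 1 of WT replicates 1 and 4 or cKO replicates 1 to 3 (adjusted p up to 0.088), and Trib3 without WT replicate 1 (0.0512). Atf5, a related stress factor, was 167, 171, 150.4, 87.0 and 115 CPM in cKO and 81.4, 72.4, 65.3, 23.2 and 48.5 CPM in WT (log2 fold change 1.29, SE 0.17, adjusted p = 0.000413), and Jdp2, an AP-1 repressor, was 15.2, 12.7, 10.7, 21.6 and 16.4 CPM in cKO and 6.45, 4.12, 5.62, 8.44 and 5.29 CPM in WT. The fitted log2 fold change was 1.34 (SE 0.17, adjusted p = 0.000351). Both rose without overlap of the groups. Atf5 shares 153 exon bases with Il4i1 on the opposite strand, and the counts of Il4i1 were 614% of its own. Atf4 transcript itself was 229.5 ± 31.5 against 239.8 ± 24.8 CPM (-0.07, adjusted p = 0.698), and Ddit3 was not called (0.11, adjusted p = 0.862). None of the 23 genes of the unfolded protein response list was called by edgeR without the block (3 higher and 1 lower with it).

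Several interferon-stimulated genes were lower. The share called was 25% of the type I interferon response list and 10.5% of the schlafen and GTPase list, against 5.18% of all genes. Of the type I interferon response list, 1 of 36 tested members rose and 8 fell (median log2 fold change -0.36; 1 and 11 with the replicate number as a block), and 31 of the 36 had a negative log2 fold change. Ifih1, the RNA sensor MDA5, was 68.6, 69.7, 51.2, 44.2 and 40.8 CPM in cKO and 85.3, 79.0, 90.1, 85.5 and 78.2 CPM in WT (log2 fold change -0.63, SE 0.11, adjusted p = 0.00466), without overlap. Isg15, a ubiquitin-like modifier, was 34.7, 36.5, 22.8, 20.6 and 26.2 CPM in cKO and 48.5, 47.9, 54.9, 33.3 and 41.6 CPM in WT. On the log2 scale the fold change was -0.68 (SE 0.15, adjusted p = 0.0123). Its groups overlapped, since WT replicate 4 lay below cKO replicates 1 and 2. Usp18, which removes ISG15 and damps the receptor, was 5.12 ± 1.46 against 12.02 ± 4.58 CPM (-1.17, adjusted p = 0.02), and the antiviral GTPases Mx1 (-1.14, adjusted p = 0.0185) and Mx2 (-1.02, adjusted p = 0.0243) fell as well. Ifi27l2a (-0.66, adjusted p = 0.00993), Trim30a (-0.59, adjusted p = 0.0295) and Ifi213 (-1.30, adjusted p = 0.0431) were the other falls. Ifi203, a neighbour of Ifi213 in the PYHIN cluster, was the single rise (0.34, adjusted p = 0.0386). How reads shared by near-identical members of the PYHIN, Mx, schlafen and Ighg families were counted was not stated in the sources at hand. Irf7, a regulator of interferon genes, was not called (0.32, adjusted p = 0.515). A call was lost for Usp18 without 3 of the 10 libraries (adjusted p up to 0.064), Mx1 without 3 of the 10 libraries (adjusted p up to 0.058), Mx2 without 5 of the 10 libraries (adjusted p up to 0.0791), Trim30a without 4 of the 10 libraries (adjusted p up to 0.0908), Ifi213 without 9 of the 10 libraries (adjusted p up to 0.121) and Ifi203 without 8 of the 10 libraries (adjusted p up to 0.101), and the list's median was -0.43 in the second run and -0.16 in the first. Of the schlafen and GTPase list, 2 of 19 tested members rose and 0 fell (median log2 fold change 0.00, -0.14 under fly scaling; 4 and 1 with the replicate number as a block): the guanylate-binding protein Gbp2, at 539 ± 31.5 against 344 ± 23.2 CPM (0.65, adjusted p = 0.000456), and Slfn1 (1.69, adjusted p = 0.00857).

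Of the B cell fate transcription factors, 4 of 27 tested members rose and 5 fell (median log2 fold change 0.08, -0.06 under fly scaling; 8 and 7 with the replicate number as a block). Zbtb20, a repressor used in germinal centre and plasma cells, was 23.0, 25.4, 23.0, 65.3 and 17.7 CPM in cKO and 75.6, 71.8, 60.4, 232 and 72.0 CPM in WT. That gave a log2 fold change of -1.68 (SE 0.32, adjusted p = 0.006). Replicate 4 was far above the others in both genotypes, and within each replicate number cKO was the lower. Ikzf1, the lymphoid regulator Ikaros (-0.36, adjusted p = 0.0068), Irf4, Mef2c (-0.31, adjusted p = 0.0439) and the early B cell factor Ebf1 (-0.48, adjusted p = 0.0492) were the other falls. Spib (0.48, adjusted p = 0.00638), Spi1, which encodes PU.1 (0.40, adjusted p = 0.00768), Klf2 and Id2, an inhibitor of E proteins (0.79, adjusted p = 0.0351), rose. Pax5 (0.10, adjusted p = 0.82), Bcl6 (0.21, adjusted p = 0.545) and Prdm1 (0.29, adjusted p = 0.477), which set B cell, germinal centre and plasma cell identity, were not called. The share called was 33.3% of the fate factors, against 5.18% of all genes. In the plasma cell programme it was 6.25%, near that of all genes. The threshold was missed by Ebf1 without 7 of the 10 libraries (adjusted p up to 0.146), Mef2c without 9 of the 10 libraries (adjusted p up to 0.103) and Id2 without 7 of the 10 libraries (adjusted p up to 0.106). Of the plasma cell programme, 0 of 16 tested members rose and 1 fell (median log2 fold change -0.15; 0 and 3 with the replicate number as a block), that fall being Irf4.

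In the BCL2 family, which balances survival against mitochondrial death, 1 of 15 tested members rose and 2 fell (median log2 fold change 0.05, -0.09 under fly scaling; 2 and 2 with the replicate number as a block). The survival gene Bcl2 was 55.4, 46.2, 45.2, 42.8 and 52.99 CPM in cKO and 77.3, 58.5, 60.9, 74.6 and 72.5 CPM in WT (log2 fold change -0.50, SE 0.11, adjusted p = 0.0167), without overlap. Its call was lost without WT replicate 1 (adjusted p = 0.0599). Bcl2l1, which encodes BCL-XL, fell by less (-0.32, adjusted p = 0.0287) and lost its call without 6 of the 10 libraries in turn. Bcl2l11, which encodes the death-promoting protein BIM, was 204, 225.8, 246, 301 and 242 CPM in cKO and 137, 131, 127, 220.7 and 125 CPM in WT. Its log2 fold change was 0.72 (SE 0.12, adjusted p = 0.00229). WT replicate 4 was far above the other WT libraries and the groups overlapped through it. Mcl1 (0.07, adjusted p = 0.831), Bax (-0.02, adjusted p = 0.968) and Bbc3 (-0.11, adjusted p = 0.744) were not called. The share of the family called was 20%, against 5.18% of all genes.

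Of the antigen presentation list, 3 of 17 tested members rose and 0 fell (median log2 fold change 0.21; 7 and 1 with the replicate number as a block). Ifi30, a lysosomal thiol reductase that unfolds antigens, was 1065, 1097, 1048, 676 and 606 CPM in cKO and 634, 626, 684, 318 and 419.6 CPM in WT. This was a log2 fold change of 0.75 (SE 0.12, adjusted p = 0.0015). The groups overlapped only because first-run values were lower in both genotypes, and the difference was 0.73 in the second run and 0.78 in the first. H2-Ob (229.1 ± 25.5 against 161 ± 9.47 CPM; 0.51, adjusted p = 0.00197) and H2-DMb1 (177 ± 13.8 against 131 ± 13.7 CPM; 0.43, adjusted p = 0.00518), subunits of the proteins that regulate peptide loading of MHC class II, rose without overlap. The class II chains H2-Aa (0.21, adjusted p = 0.197), H2-Ab1 (0.05, adjusted p = 0.889) and Cd74 (0.35, adjusted p = 0.121) were not called. In the antigen presentation list the share called was 17.6%, against 5.18% of all genes. Treml2, a receptor of the TREM family found on B cells, was 261, 267, 249, 181 and 191 CPM in cKO and 154, 154, 163, 106 and 111 CPM in WT. The fitted log2 fold change was 0.75 (SE 0.06, adjusted p = 1.15e-05).

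**Figure D2:**
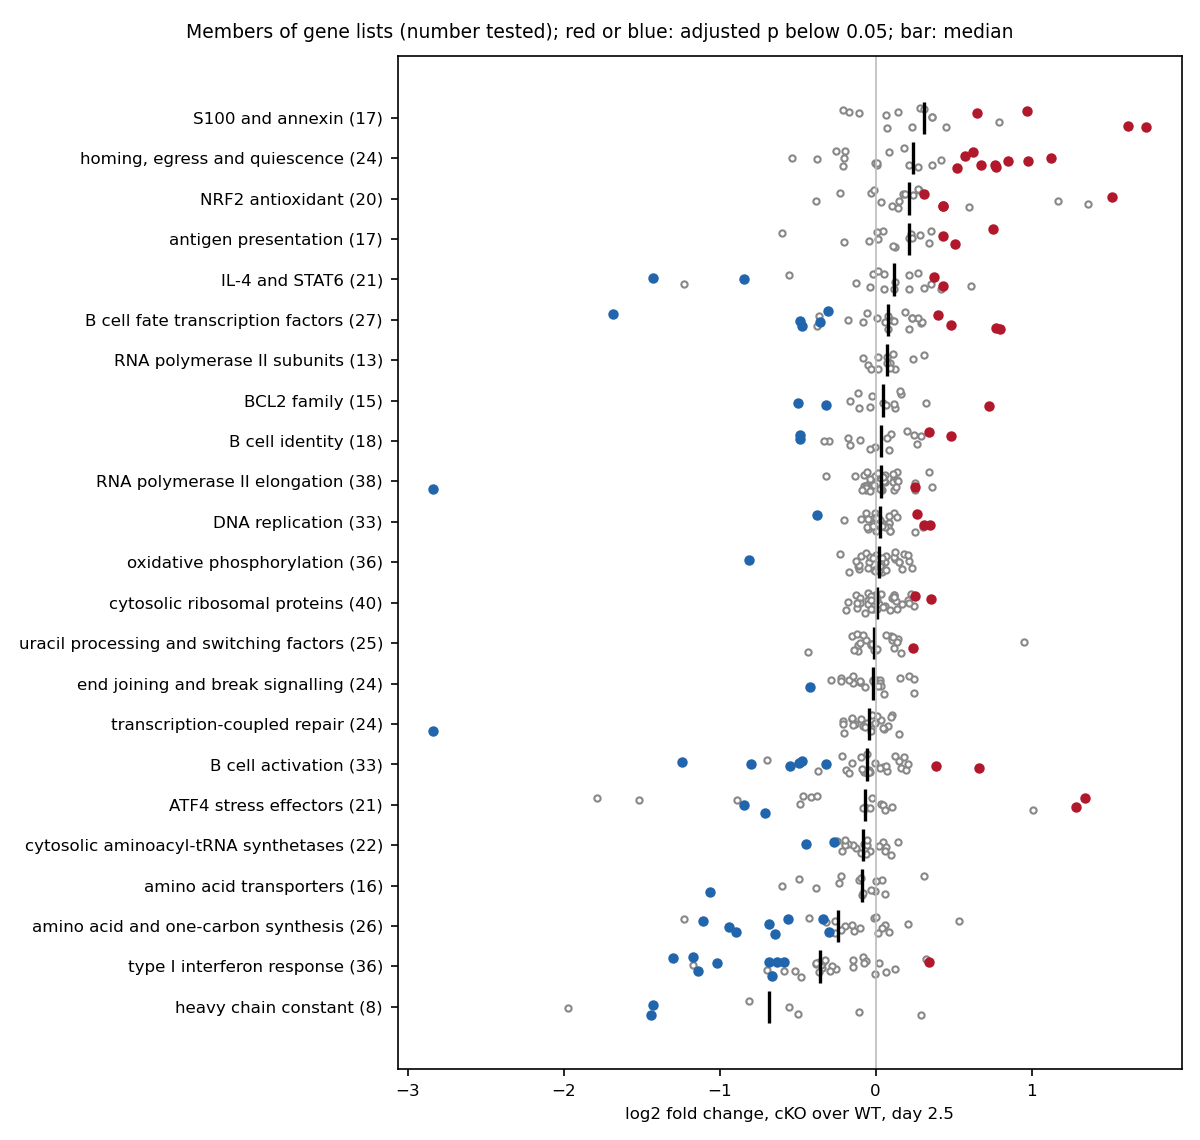
Log2 fold changes (cKO over WT, day 2.5) of the members of 23 gene lists, ordered by their median (black bar), with the number tested in brackets (red or blue: adjusted p below 0.05; open: not called). Heavy chain constant, interferon and amino acid synthesis members lie mostly below 0 and homing and S100 members mostly above. Under fly scaling the medians of all 42 lists, plotted or not, move down by 0.11 to 0.19.

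Among growth and division genes, the share called was above the 5.18% of all genes for the DNA replication list (12.1%) and ran from 0% to 7.14% for the ribosomal, respiratory, mitotic, p53 and metabolic lists. Of the cytosolic ribosomal protein genes, 2 of 40 tested members rose and 0 fell (median log2 fold change 0.01, -0.13 under fly scaling; 4 and 0 with the replicate number as a block), and of the nuclear oxidative phosphorylation genes, 0 of 36 tested members rose and 1 fell (median log2 fold change 0.02, -0.13 under fly scaling; 0 and 2 with the replicate number as a block). Uqcc2, needed to assemble complex III of the respiratory chain, was that single fall, at 26.4, 27.3, 22.7, 16.2 and 13.8 CPM in cKO and 45.02, 46.3, 45.5, 26.1 and 24.8 CPM in WT (log2 fold change -0.81, SE 0.09, adjusted p = 0.000164), with a difference of -0.84 in the second run and -0.78 in the first. Of the DNA replication list, 3 of 33 tested members rose and 1 fell (median log2 fold change 0.02, -0.12 under fly scaling; 4 and 1 with the replicate number as a block): Cdc6 (0.31), Slbp (0.35) and Uhrf1 (0.27) were higher, and Pola1, the catalytic subunit of polymerase alpha, was lower (-0.37, adjusted p = 0.00513). The call was lost for Cdc6 without 7 of the 10 libraries (adjusted p up to 0.0906), Slbp without 8 of the 10 libraries (adjusted p up to 0.0892), Uhrf1 without 7 of the 10 libraries (adjusted p up to 0.0944) and Kif23 without 4 of the 10 libraries (adjusted p up to 0.076). Of the G2 and mitosis list, 1 of 30 tested members rose and 0 fell (median log2 fold change 0.03, -0.11 under fly scaling; 2 and 1 with the replicate number as a block), and that was Kif23, a motor of cytokinesis (0.30, adjusted p = 0.0233). Of the p53 targets, 2 of 28 tested members rose and 0 fell (median log2 fold change -0.02; 2 and 3 with the replicate number as a block), namely Plk3 (0.64, adjusted p = 0.000387) and Btg2, while Cdkn1a (0.17, adjusted p = 0.754) and Mdm2 (0.05, adjusted p = 0.858) were not called. With edgeR, 0 genes were called in the glycolysis and hypoxia list (28 tested), the ribosome biogenesis list (30) and the cholesterol synthesis list (24). With the replicate block these lists held 1, 1 and 1 higher and 1, 2 and 3 lower calls.

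Outside the lists, the largest rises without overlap were led by Gramd2 (17.3 ± 8.75 against 4.30 ± 0.515 CPM; 1.94, adjusted p = 0.000433), Tnnt2, a troponin subunit (3.08 ± 1.96 against 0.719 ± 0.335 CPM; 1.94, adjusted p = 0.0344), Tspoap1 (109 ± 50.1 against 30.6 ± 23.1 CPM; 1.87, adjusted p = 0.00264) and Cdh1, which encodes E-cadherin (2.96 ± 0.806 against 0.8 ± 0.258 CPM; 1.87, adjusted p = 0.00917). Several of these were low in every library. Lynx1 (1.69, adjusted p = 2.04e-05), the neonatal Fc receptor chain Fcgrt (1.54, adjusted p = 0.0142), the thromboxane synthase Tbxas1 (1.53, adjusted p = 0.000387), Tnp2 (1.57, adjusted p = 0.0217) and Dkkl1 (1.45, adjusted p = 0.00219) followed. Calls were lost for Tnnt2 without 6 of the 10 libraries (adjusted p up to 0.106), Fcgrt without cKO replicate 3 (adjusted p = 0.0531) and Tnp2 without WT replicate 2 (adjusted p = 0.0518). The smallest adjusted p-values among rises belonged to Sema4a, a semaphorin of activated lymphocytes, at 44.5, 42.4, 44.2, 29.1 and 32.96 CPM in cKO and 15.9, 16.6, 18.98, 10.6 and 13.6 CPM in WT (log2 fold change 1.35, SE 0.10, adjusted p = 3.93e-06), and Zcchc18, at 302, 299, 274, 201 and 185 CPM in cKO and 154, 167, 158, 103 and 89.5 CPM in WT. On the log2 scale the fold change was 0.92 (SE 0.07, adjusted p = 4.17e-06). Rassf4 (89.1 ± 7.08 against 41.3 ± 4.30 CPM; 1.11, adjusted p = 7.73e-06) and Lad1 (189.7 ± 11.8 against 88.7 ± 17.8 CPM; 1.12, adjusted p = 2.85e-05) were higher in every cKO library than in any WT library. Fam129c (0.91, adjusted p = 9.65e-05) shares 46.7% of its exon bases with Pgls.

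Among the largest falls, besides Elof1, Ighg1, Ighg2b and Egr2, P2rx3, an ATP-gated channel, was 0.961 ± 0.39 against 3.66 ± 1.47 CPM (-1.96, adjusted p = 0.00114). It shares 69 exon bases with Ssrp1, a gene with far more counts on the opposite strand. Ido2, a tryptophan-degrading enzyme, was 4.68, 4.01, 5.39, 3.15 and 5.45 CPM in cKO and 11.4, 11.6, 14.1, 9.51 and 11.9 CPM in WT. That gave a log2 fold change of -1.35 (SE 0.16, adjusted p = 0.000174). Sema6d (17.4 ± 4.30 against 42.9 ± 6.45 CPM; -1.31, adjusted p = 0.000733), Gnaz (-1.26, adjusted p = 0.00154), the ferritin receptor Timd2 (24.0 ± 6.42 against 54.8 ± 9.26 CPM; -1.19, adjusted p = 0.000835) and the inhibitory receptor Pdcd1, which encodes PD-1 (1.81 ± 0.626 against 4.11 ± 1.20 CPM; -1.19, adjusted p = 0.00834), were lower without overlap. Emb, an adhesion protein, was 8.70, 7.85, 10.1, 19.6 and 17.6 CPM in cKO and 19.7, 17.8, 20.3, 36.9 and 34.6 CPM in WT. Its log2 fold change was -1.04 (SE 0.10, adjusted p = 4.54e-05). Its first-run libraries were higher in both genotypes, so the groups overlapped although each run held the same difference (-1.11 in the second run and -0.96 in the first).

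Lower calls were more frequent among genes that span long stretches of the genome. Of genes under 2 kb, 0.346% were called lower, against 2.25% of those spanning 20 to 50 kb, 6.35% of those spanning 100 to 200 kb and 13% of those spanning 200 kb or more (52 of 400). Higher calls were 1.38% under 2 kb, so few genes of that class were called in either direction, and fell from 3.82% at 10 to 20 kb to 0.75% at 200 kb or more. The median log2 fold change ran from 0.09 under 2 kb to -0.22 at 200 kb or more. Under fly scaling it ran from -0.06 to -0.37, below 0 in every class. In all, 108 of the 316 lower calls and 16 of the 377 higher calls spanned 100 kb or more (34.2% and 4.24%, where such genes are 9.59% of those tested). Within each of the 4 classes of expression from a mean log2 CPM of 1 upwards the same order held: at a mean log2 CPM of 5 to 7 the median was -0.09 for 401 genes of 100 kb or more and 0.06 for 886 genes under 10 kb, and at 1 to 3 it was -0.33 and 0.07. Zbtb20 (766722 bases), Sema6d (577802), Atxn1 (415234), Prkca (410542), Ebf1 (390775), Pola1 (327389), Bank1 (272684) and Bcl2 (176097) are such genes named here. Atxn1, which encodes a transcriptional corepressor, was 30.8, 35.0, 34.4, 24.9 and 17.6 CPM in cKO and 62.7, 55.3, 57.0, 44.8 and 36.02 CPM in WT (log2 fold change -0.85, SE 0.11, adjusted p = 0.000341), and Prkca, protein kinase C alpha, was 54.9, 54.7, 60.9, 71.1 and 54.6 CPM in cKO and 99.6, 90.5, 94.1, 102 and 99.2 CPM in WT. This was a log2 fold change of -0.71 (SE 0.08, adjusted p = 0.000113). Neither group pair overlapped. Cmah (-0.68, adjusted p = 2.85e-05) and Bank1, an adaptor of the B cell receptor (-0.48, adjusted p = 0.0103), spanned over 100 kb as well.

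Per library, the median log2 CPM of genes spanning at least 100 kb, less the median of those below 10 kb, was 1.45, 1.47, 1.41, 1.55 and 1.19 in cKO and 1.65, 1.59, 1.66, 1.75 and 1.54 in WT. The groups touched, since cKO replicate 4 equalled the lowest WT library to within 0.01, and cKO replicate 5 was the lowest of all. The means differed by -0.22 (exact 2-sided permutation test, p = 0.0159, adjusted over 3 library-level tests 0.0238). Within runs the difference was -0.19 in the second and -0.28 in the first. Without the 2 libraries with Y-linked counts it was -0.23 (exact permutation p = 0.0571), and with the replicate block the test gave its smallest possible p, 0.0625.

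**Figure D3:**
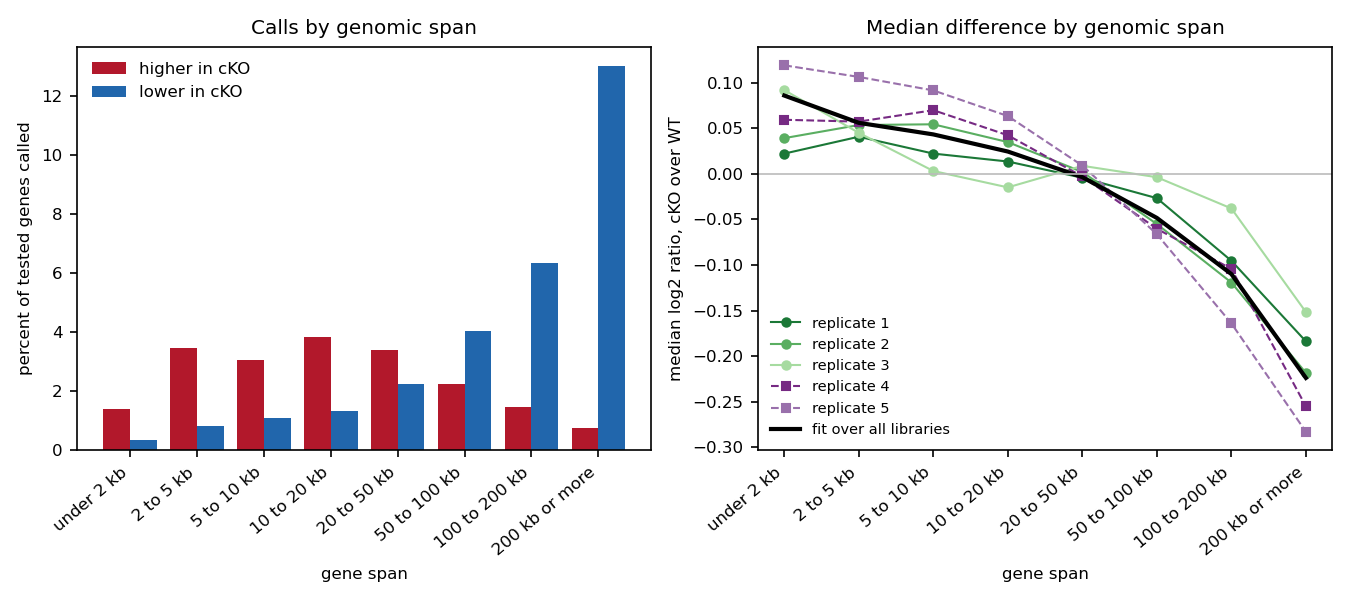
Left, percent of tested genes called higher (red) or lower (blue) in cKO by genomic span of the gene, from 0. Right, median log2 ratio of cKO over WT in each span class for each same-numbered library pair (circles: second run; squares: first run) and for the fit over all libraries (black). All 5 pairs lie below 0 at 200 kb or more, between -0.15 and -0.28.

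The same genotype difference was measured at day 3.5 in 3 cKO and 3 WT libraries, all of the second run. No gene changed its genotype difference between the days at an adjusted p below 0.05 with edgeR (lowest adjusted p = 0.909; 278 genes, 2.08%, at an unadjusted p below 0.05) or with DESeq2, and an edgeR fit without the filter on low counts gave 16. At day 3.5, 277 genes were called (2.07%; 1.14% higher and 0.928% lower), and 686 of the 693 day-2.5 calls had the same sign there. The 2 days were fitted together with a shared run term, and the labels do not say whether the same animals gave both. If they did, the libraries of the 2 days are not independent, as the fit takes them to be. Y-linked counts were above 10 CPM in cKO replicate 3 and WT replicate 2 at both days. Ighg1 was 1044 ± 128 against 2609.8 ± 607 CPM at day 3.5 (SD, n = 3 each; log2 fold change -1.32, adjusted p = 0.00097). Cd44 (-0.56, adjusted p = 0.0165), Asns (-1.30, adjusted p = 0.00431) and Sema4a (1.66, adjusted p = 6.61e-06) were also called there. Ccr7 was not (0.46, adjusted p = 0.287), nor was Bcl2 (-0.39, adjusted p = 0.222). The 6 genes with the smallest adjusted p for a change between days were Mindy3, Tmsb10, Tyw3, Iglc2, Pqlc1 and H2-M6-ps, and none passed the test. Pqlc1 was lower at day 2.5 (-0.45, adjusted p = 0.0209; lost without WT replicate 3 or cKO replicate 2) and at day 3.5 (-1.07, adjusted p = 0.000644), and Tmsb10, an actin-binding thymosin, was higher at day 2.5 only by its own test (0.68, adjusted p = 0.00444; day 3.5 -0.13, adjusted p = 0.834).

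In CH12F3 cells at day 1.5 the comparison was of the knockout with empty vector against the knockout with ELOF1 put back, after stimulation with CD40 antibody, IL4 and TGF-beta, a mixture that drives this line to switch to IgA. Stimulus, time, control and cell differ from the spleen experiment, so a difference between the 2 is one between experiments. Of 15639 genes in the joint fit, 117 differed in their response (0.748%), 53 with the higher value in spleen (0.339%) and 64 with the lower (0.409%). Of the 117, 105 had opposite signs. A test of a difference favours genes with opposite signs, so their number is largely built in. The number of genes that differed was 654 with the replicate number as a block, 287 with DESeq2, 73 without CH12F3 vector replicate 2 and 207 without spleen cKO replicate 5. Of the 693 spleen calls 11 had no counts to give a CH12F3 value, and 450 of the other 682 had the same sign there. By its own test CH12F3 called 174 genes (1.11%; 0.563% higher and 0.55% lower), of which 31 spleen calls had the same sign and 13 the opposite sign. Ighg1 was the clearest opposite: the CH12F3 value was 1.52, adjusted p = 0.000137, at 14.4 ± 2.10 CPM with vector and 5.06 ± 1.43 CPM with ELOF1 (SD, n = 4 each), and the difference between systems was -2.96, SE 0.25, adjusted p = 6.25e-08. Egr2 (-2.22, SE 0.27, adjusted p = 7.49e-05), Ighg2b (-2.91, SE 0.46, adjusted p = 0.00108), Irf4 (-0.96, SE 0.14, adjusted p = 0.000626), Cdk5r1, an activator of CDK5 (-1.55, SE 0.18, adjusted p = 3.04e-05), and Bcl2l1 (-1.19, SE 0.19, adjusted p = 0.00113) differed in the same sense. Cth (-1.33, SE 0.21, adjusted p = 0.000897), Psph (-1.04, SE 0.16, adjusted p = 0.00104), Trib3 (-1.03, SE 0.21, adjusted p = 0.00988) and Slc1a4 (-0.996, SE 0.16, adjusted p = 0.00108) also differed between systems, lower in spleen and not called in CH12F3, while Asns was at 0.0896 ± 0.179 CPM with vector and 0.0618 ± 0.124 CPM with ELOF1 in CH12F3, too low to compare. Uqcc2 (CH12F3 -0.71, adjusted p = 0.00109), Treml2 (0.47, adjusted p = 0.0174), Ifi30 (0.61, adjusted p = 0.00625), Cd40 (0.54, adjusted p = 0.0197) and Pola1 (-0.36, adjusted p = 0.0212) passed the test in CH12F3 as well, with the sign they had in spleen. In the other sense Dusp3, a phosphatase (1.11, SE 0.16, adjusted p = 0.00056), Pou6f1 (1.70, SE 0.24, adjusted p = 0.00056), Rassf4 (1.03, SE 0.17, adjusted p = 0.00113) and Sema4a (1.35, SE 0.26, adjusted p = 0.00612) were higher in spleen than in the line. Sowahc (-0.98, SE 0.14, adjusted p = 0.00056) carries the same counts as an overlapping unnamed gene. Pou6f1 shares 98% of its exon bases with an unnamed gene on the same strand, whose counts were 18.5% of its own. By the spleen test, the call was lost for Cdk5r1 without 7 of the 10 libraries (adjusted p up to 0.0777), Pou6f1 without 7 of the 10 libraries (adjusted p up to 0.0929) and Sowahc without 7 of the 10 libraries (adjusted p up to 0.0994).

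**Figure D4:**
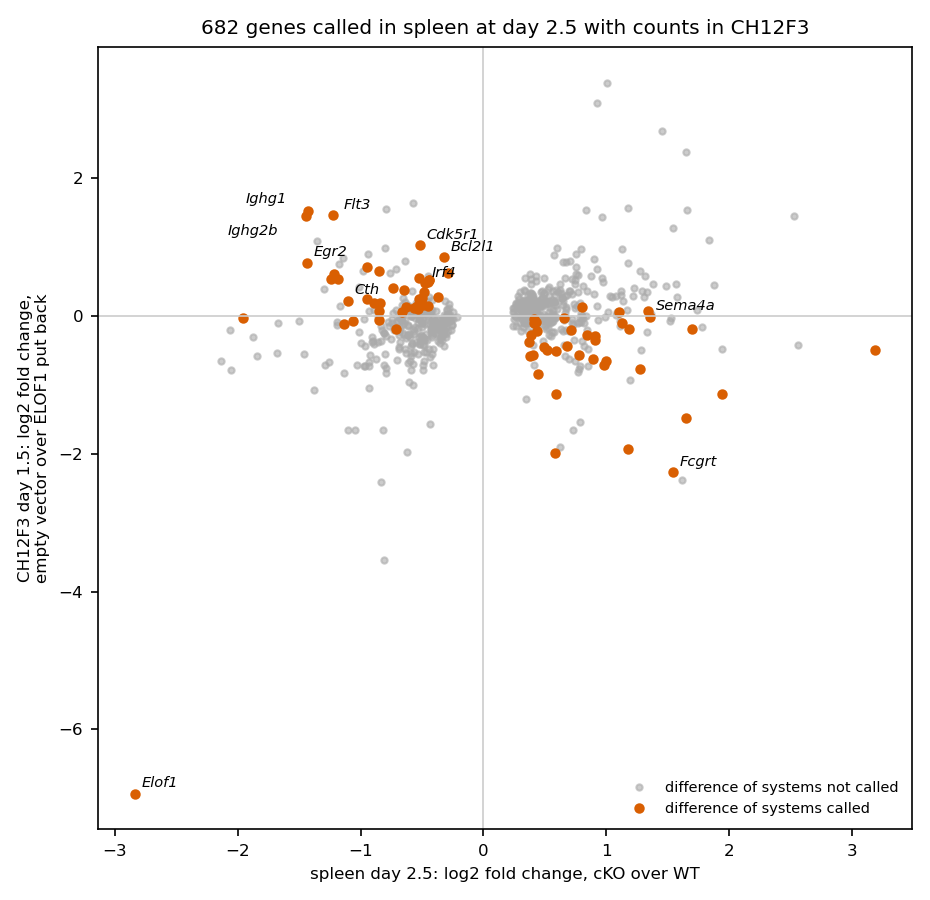
Log2 fold changes of the 682 genes called in spleen at day 2.5 with counts in CH12F3 (x axis, cKO over WT) against the same genes in CH12F3 at day 1.5 (y axis, empty vector over ELOF1 put back), with genes whose difference between the systems was called in orange. Ighg1 and Ighg2b lie at the upper left, lower in spleen and higher in CH12F3, and Elof1 is low in both.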

How the data were processed

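Counts per gene of mouse and fly were deposited by the authors as whole numbers in 1 table for spleen and 1 for CH12F3. Bowtie2 and featureCounts are named, with mm10 and dm6, per the submitters' processing notes. The kit is strand-specific per the labels' protocols, and the strand setting of the counting is not given in the sources used here. Rows of fly genes (17509 of 60854) were used only for scaling, and 884 of 43345 mouse genes had no symbol.

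Genes passing filterByExpr over the 16 spleen libraries (13367) were fitted with edgeR 4.0.16 (quasi-likelihood test, TMM scaling, R 4.3.3, limma 3.58.1), with a term for each group of genotype and day and for the run. Each contrast was adjusted by Benjamini-Hochberg at 0.05, all adjusted p-values are from this tool unless another is named, and the spread was estimated on 11 residual degrees of freedom. CPM values use the same scaling. The joint fit with CH12F3 took all 32 libraries. Exact permutation tests over libraries used scipy 1.17.1. In simulated data 50 genes were changed at each size, all with a mean of at least 50 counts. In the spleen day 2.5 comparison (13198 genes) edgeR recovered 12%, 64%, 90% and 100% of log2 changes of 0.3, 0.6, 1 and 1.5. Changes under 1.5-fold are thus often missed at 9807560 to 16359477 counts per library. Recovery among genes of lower count was not simulated.

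Alternatives were DESeq2 1.42.0, RLE or fly scaling, other filters, robust dispersions, no run term, single runs, day 2.5 libraries alone, the replicate number as a block, and each library left out. Added after seeing the data were fits with replicates 4 and 5 as separate batches and the same with a term for Y-linked counts. A fit without the 4 spleen libraries that carry such counts (summed CPM of 4 genes above 10) was also added then. Same-numbered cKO and WT libraries deviated together from their group means (correlations 0.691, 0.381, 0.398, 0.865 and 0.868), but from the means of group and run the values were 0.42, -0.454, -0.222, 0.855 and 0.855. With 2 libraries per genotype in the first run, the 2 values of 0.855 are 1 value by construction. In the second run cKO replicate 3 went with WT replicate 2 (0.598), which are the libraries with Y-linked counts. The numbers thus follow the run and do not pair the libraries consistently in the second run, so block values are not those of known pairs. The block is given where it moves a call.

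Named genes were the heavy chain genes and Ung, Supt5, Trp53bp1 and Elof1, the 12 largest non-overlapping changes in each direction at a mean log2 CPM of at least 1, the 8 smallest adjusted p in each direction, up to 5 called members of each list, and 6 per difference of differences. Other list members were named after their values were seen, and some results are not reported here. The comparison, the lists and the members were chosen with earlier results of these data known. Overlaps between genes were read from exon coordinates in the table, and promoters are those of RefSeq, GRCm38.p6.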

Additional observations from a re-analysis of the deposited data

Results flagged for a closer look

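Within a genotype, 1 of 5 libraries stood far from the other 4 in 22 of 242 groups of named genes reported here (9.09%). The limit used gives about 5% for 5 draws from 1 normal population. These groups mix 2 runs and share the same libraries, so that 5% is not their chance rate. In 14 of the 22 groups the far library was replicate 4. WT replicate 4 was the high library for Zbtb20 at 232 CPM (the other 4 at 60.4 to 75.6), Bcl2l11 at 220.7 CPM (125 to 137), Cd86 at 109 CPM, Gadd45g at 65.6 CPM, Flt3 at 54.1 CPM, Tspoap1 at 71.4 CPM and P2rx3 at 6.21 CPM. Replicate 4 of cKO was the high library for Zbtb20 at 65.3 CPM (the other 4 at 17.7 to 25.4), Tspoap1 at 196 CPM, Ebf1 at 105 CPM, Tbxas1 at 57.2 CPM, Gramd2 at 32.7 CPM and Flt3 at 17.9 CPM, and the low one for Nfe2l2 at 24.9 CPM. Zbtb20, Flt3 and Tspoap1 were thus high in replicate 4 of both genotypes. Replicate 5 was high in both genotypes for Slbp (150.4 CPM in cKO and 124 CPM in WT) and low for Il2rb (15.3 CPM, WT), Ccr7 (13.9 CPM, WT) and Dkkl1 (3.11 CPM, cKO). WT replicate 2 was high for Ighm at 6920.1 CPM and low for Gramd2 at 3.40 CPM, and cKO replicate 3 was high for Btg2 at 205 CPM. Replicates 4 and 5 also stood far from each other, although the main fit takes them as 1 run. The chi-square of counts per gene between them was 87.7 in cKO and 81.7 in WT. Among replicates 1 to 3 it was 3.20 to 13.2 in cKO and 5.01 to 7.62 in WT. What sets replicates 4 and 5 apart was not tested.

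For 33 named genes the log2 difference between spleen at day 2.5 and CH12F3 at day 1.5 passed the test of that difference. The spleen effect was the lower one for Ighg1 (-2.96), Ighg2b (-2.91), Flt3 (-2.70), Egr2 (-2.22), Ighe (-2.15), P2rx3 (-1.92), Pdcd1 (-1.74), Cdk5r1 (-1.55), Ccl22 (-1.52), Cth (-1.33), Bcl2l1 (-1.19), Psph (-1.04), Trib3 (-1.03), Slc1a4 (-0.996), Sowahc (-0.98), Irf4 (-0.96), Atxn1 (-0.93), Bcl2 (-0.77), Cd44 (-0.67) and Prkca (-0.53). It was the higher one for Elof1 (4.08), Fcgrt (3.80), Tnnt2 (3.08), Lynx1 (1.88), Pou6f1 (1.70), Myof (1.51), Sema4a (1.35), Iglc2 (1.27), Jdp2 (1.26), Fam129c (1.25), Dusp3 (1.11), Rassf4 (1.03) and Ski (0.9996). For Elof1 the comparison in CH12F3 is with a vector that expresses ELOF1. With the 18 libraries left out 1 at a time, the call was lost for Ighe without 14 of them (adjusted p up to 0.133). It was lost for Jdp2 without 10 (adjusted p up to 0.105) and Pdcd1 without 5 (up to 0.12). Prkca lost it without 3 (up to 0.056), Tnnt2 without 3 (up to 0.0624) and Cd44 without 2 (up to 0.0691). Cell, stimulus, time and control cannot be told apart in these differences.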

How the results depend on the processing

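The 693 calls of the day 2.5 genotype difference became 93 under fly scaling, 203 without the run term, 343 with the day 2.5 libraries alone, 1087 in the second run alone and 0 in the first run alone. With the replicate number as a block the count was 1779, and with replicates 4 and 5 as separate batches 2001. A term for Y-linked counts added to the latter gave 2225, and leaving out the 4 spleen libraries that carry such counts gave 173. The count ran from 425 to 801 with 1 library left out. DESeq2 gave 1033, no filter 872 and a mean log2 CPM of at least 1 gave 719. Of the 112 named genes called, 112 kept the call with DESeq2, 111 with the block, 58 without the run term and 37 under fly scaling. Without the 4 spleen libraries with Y-linked counts 55 kept it, and 83 to 103 did with 1 library left out. The sign was reversed for Ighd in the first run alone (0.29) and for Supt5 under fly scaling (-0.035), both uncalled.

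The change between days gave 0 calls under the settings run except no filter (16), still 0 when 1 library was left out. The 117 differences between spleen and CH12F3 became 287 with DESeq2, 403 with no filter, 654 with the replicate number as a block, 25 without the run term and 19 under fly scaling, and 73 to 207 with 1 library left out. The difference in the Ighg1 to Ighm ratio was -1.72 in the second run (p = 0.1, exact permutation), also -1.72 in the first run (p = 0.333) and with the replicate block (p = 0.0625), each the smallest p possible there, and -1.81 to -1.63 with 1 library left out. The difference between long and short genes was -0.19 in the second run (exact permutation p = 0.1), -0.28 in the first (0.667), -0.22 with the block (0.0625), -0.23 without the libraries with Y-linked counts (0.0571) and -0.25 to -0.17 with 1 library left out. The fly to mouse ratio ranged from -0.041 to 0.21, the reversed sign being without WT replicate 5 (-0.041). The causes were not tested, beyond the fewer libraries in the subsets. Depth limits genes of low count.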

Other observations

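Of the marginal zone and B1 markers, 2 of 15 tested members rose and 0 fell (median log2 fold change 0.08, -0.07 under fly scaling; 3 and 1 with the replicate number as a block). Spn, which encodes CD43 of B1 and activated B cells, was 98.4, 93.3, 98.6, 84.0 and 103 CPM in cKO and 63.8, 60.3, 61.4, 47.2 and 69.6 CPM in WT (log2 fold change 0.66, SE 0.11, adjusted p = 0.00297), and Myof, a membrane repair protein, was 15.5 ± 3.70 against 8.31 ± 1.6003 CPM (0.89, adjusted p = 0.00513). Neither pair of groups overlapped. The share called was 13.3% of the marginal zone and B1 markers, against 5.18% of all genes. It was near that share in the B cell receptor signalling list (7.14%) and the LPS and Toll-like receptor list (4.76%). Of the B cell receptor signalling list, 2 of 28 tested members rose and 0 fell (median log2 fold change 0.10, -0.05 under fly scaling; 5 and 3 with the replicate number as a block), among them Pirb, an inhibitory receptor (10.99 ± 1.98 against 6.25 ± 0.877 CPM; 0.81, adjusted p = 0.00847). Of the LPS and Toll-like receptor list, 1 of 21 tested members rose and 0 fell (median log2 fold change 0.04, -0.08 under fly scaling; 4 and 0 with the replicate number as a block): Unc93b1, which carries Toll-like receptors to endosomes, was 370.3 ± 95.2 against 283 ± 85.6 CPM (0.40, adjusted p = 0.0149). Of the light chain and joining chain genes, 0 of 4 tested members rose and 0 fell (median log2 fold change 0.06, -0.09 under fly scaling; 1 and 0 with the replicate number as a block), with Igkc at -0.17 and Jchain at -0.58.

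By gene type, 354 of 11174 protein-coding genes were called higher (3.17%) and 307 lower (2.75%). Of 185 antisense genes 7 were higher and 0 lower by edgeR, and of 468 processed pseudogenes 0 were called in either direction, with a median log2 fold change of 0.16. Called genes were more often higher than lower at a mean log2 CPM of 7 or more (5.38% and 1.46% of 1784 genes) and more often lower at 3 to 5 (2.64% and 3.79% of 3404). Median exon length was 3736 bases among higher calls, 4688.5 among lower calls and 3370 among all genes tested.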
